A study of Caenorhabditis elegans with 4 samples.

Results

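The regions described here are the peaks of MML-1 ChIP on chromosome X of Caenorhabditis elegans, as listed by the authors. They were chosen by chromosome and by the authors' own peak calls and ranks: all 113 X peaks of the combined list (of 396 peaks in all), and the X peaks with a peak number of 3000 or lower in each ChIP replicate. The latter numbered 686 in replicate 1 and 723 in replicate 2, out of 30000 rows per list, and peak number 1 is the highest ranked. The 5490 and 5652 X rows with higher numbers served as background. Ranks, scores and q-values are therefore given as descriptions.

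The animals were L3 larvae of strain OP198, all hermaphrodites, kept at 20 °C. The genotype is unc-119(ed3) with the transgene wgIs198, in which mml-1 carries a C-terminal tag with EGFP and FLAG beside an unc-119 marker. It was made by recombineering and introduced by bombardment, and the genotype lists no mutation of the endogenous mml-1 gene. Chromatin from 2 samples was precipitated with anti-GFP antibodies, and the input DNA of 2 matching samples has no values analysed here. There was thus a single strain, stage and condition, and no untagged control was analysed. The labels do not say whether replicates were separate cultures, so their spread may be technical. No test over samples was possible. Shares carry exact Clopper-Pearson 95% intervals, which treat peaks as independent and cover counting error only, and differences are judged by these intervals and by whether both replicates show them.

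MML-1 is the worm member of the Mondo family of basic helix-loop-helix leucine zipper transcription factors, and it binds DNA together with the Mlx homologue MXL-2. Mammalian Mondo proteins are known for switching on metabolic genes when glucose is high, and worm MML-1 is known for its part in longevity pathways. Chromosome X is the sex chromosome of the worm. In hermaphrodites its expression is lowered by the dosage compensation complex, and it lacks the sharp division into gene-rich centre and gene-poor arms that the autosomes show.

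Most of the strongest X regions overlapped peaks of both replicates and had close neighbours. Of the 15 X peaks with the smallest q-values, 9 were among the first 25 peaks of the whole combined list, 14 overlapped members of both replicates, and 12 belonged to a group of peaks less than 10 kb apart. The same shares were not taken for the strongest peaks of the other chromosomes, so these counts do not set X apart. In all, 11 X peaks (9.73%) had a q-value below 1e-20, against 8.33% of the whole combined list, and 20 (17.7%) below 1e-10, against 14.9%. At 0.001 or more there were 56 (49.6%), against 48.7% of the whole list. All q-values are those of the authors' peak caller, and coordinates are on build WS220.

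The first of the 15 lay at 6749008 to 6750613 with q = 4.65e-94, and its best-ranked overlaps were number 12 (replicate 1) and number 9 (replicate 2). Pairs of numbers are given below in that order. The next lay at 10331907 to 10332899 (q = 1.62e-47, numbers 21 and 15). Its neighbour 220 bp away, at 10333120 to 10333693, had q = 1.39e-21 and numbers 34 and 77. These regions were thus ranked high in all 3 lists. The peak at 4530295 to 4530745 had q = 3.51e-45 with numbers 10 and 5, the best pair of ranks at any combined X peak. Near the right end of X, the peaks at 17632281 to 17633639 (q = 2.73e-42, numbers 23 and 86) and 17640531 to 17641119 (q = 1.23e-32, numbers 11 and 20) belonged to a single group. So did those at 13358320 to 13359001 (q = 1.47e-30, numbers 16 and 50) and 13353403 to 13353936 (q = 1.26e-20, numbers 39 and 37). The peak at 14809804 to 14810216 had q = 8.8e-15 and numbers 46 and 173.

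The 3 of the 15 that stood alone were 377 to 470 bp wide and highly ranked in both replicates. They lay at 7446400 to 7446798 (q = 7.38e-29, numbers 28 and 14), at 5164871 to 5165340 (q = 1.44e-28, numbers 14 and 8) and at 6916129 to 6916505 (q = 1.72e-26, numbers 27 and 21). The remaining 3 were less even between replicates. The peak at 6806494 to 6807832 (q = 2.89e-26) had numbers 385 and 55, from replicate intervals that did not overlap each other. Number 385 overlapped replicate 2 number 155, with midpoints 7 bp apart. The peak at 13145068 to 13145571 (q = 1.28e-15) had numbers 36 and 1550. At 17635909 to 17636690 (q = 3.15e-15) replicate 2 had peak number 2164 and replicate 1 had no overlapping peak, with its nearest peak numbered 3000 or lower 517 bp away. At the other end of the list, the X peak with the largest q-value lay at 1446783 to 1447068 (q = 0.01).

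Of the 113 combined X peaks, 44 overlapped members of both replicates (38.9%, 95% interval 29.9 to 48.6%). Over all chromosomes the share was 36.1%, which lies inside that interval, so this share does not set X apart. The share depends on the limits set, being 25.7% with peak numbers of 1000 or lower, 17.7% when the overlap had to cover 50% of both intervals, and 78.1% for the 32 X peaks with q-values below 1e-05. A further 25 peaks had such a match in replicate 1 alone, 19 in replicate 2 alone and 25 in neither. Replicate peaks matched to the same combined peak did not have to overlap each other. When replicate rows of any number were counted, only 2 of the 113 had no overlapping row in either list. These were the narrow peaks at 11467265 to 11467292 and 11872411 to 11872413.

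Agreement was concentrated in the peaks with the smallest q-values. Ranked by q-value and divided into 4 classes of nearly equal size, the 29 X peaks of the first class (q up to 3.34e-08) included 23 matched in both replicates (79.3%, 60.3 to 92.0%) and none unmatched in both. In each of the second and the third class 9 of 28 were matched in both (32.1%, 15.9 to 52.4%), and in the last class 3 of 28 were (10.7%, 2.27 to 28.2%). The median q-value was 2.4e-08 for peaks matched in both replicates, 0.00309 for those matched in a single replicate and 0.00401 for those matched in neither. Across peaks the q-value followed the replicate peak number with Spearman's rho = 0.65 over the 99 peaks that overlapped any replicate 1 row, and rho = 0.50 over the 101 that overlapped any replicate 2 row. The combined and replicate lists describe the same ChIP samples, so this is no independent support. The shares by q-value class were not taken over all chromosomes.

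**Figure D1:**
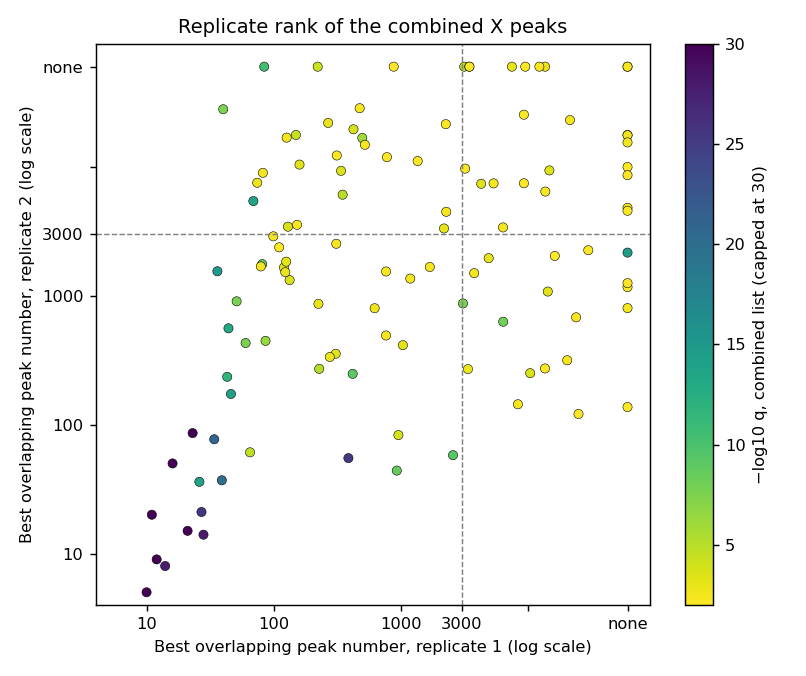
Each point is a combined X peak, placed by the number of its best overlapping peak in replicate 1 (x axis, log scale) and replicate 2 (y axis, log scale), with "none" where there was no overlap, dashed lines at 3000 and colour for −log10 q (capped). The peaks with the smallest q-values sit in the lower left, where 13 peaks have a number of 100 or lower in both replicates, and the others spread over both axes.

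Some combined X peaks had very unequal ranks. The largest ratio was at 1479525 to 1479958 (q = 3.34e-08), with numbers 40 and 28039 and the nearest replicate 2 peak numbered 3000 or lower 14015 bp away. The peak at 1446783 to 1447068 had the opposite order, with numbers 24718 and 121. Next came the peaks at 2904087 to 2904232 (numbers 126 and 16884), at 6808505 to 6808911 (149 and 17702) and at 5429402 to 5429641 (82 and 9004). At the peak starting at 6808505 a replicate 2 member lay only 5 bp away. Of the 25 peaks matched in replicate 1 alone, 8 lay within 1 kb of a replicate 2 peak numbered 3000 or lower, and of the 19 matched in replicate 2 alone, 5 lay that close to such a peak of replicate 1. Among the 44 matched in both, the better rank was in replicate 1 for 28 and in replicate 2 for 16.

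The combined X peaks had a median width of 286 bp, with a range of 3 to 1606 bp, and the 283 autosomal peaks a median of 268 bp. Width and q-value went together (Spearman's rho = 0.83 between width and −log10 q across 113 peaks), both being outputs of the same caller. The median width fell from 534 bp in the first of the 4 q-value classes to 319, 187.5 and 138 bp in the following ones. Only 3 peaks were wider than 1000 bp, at 6749008, 17632281 and 6806494 (starts), and all 3 were among the leading 15. At the low end, 13 peaks were narrower than 100 bp, and 4 of these were under 10 bp. The narrowest was the 3 bp peak at 11872411 to 11872413 (q = 0.0058). None of the 13 was matched in both replicates (0%, upper limit 24.7%), against 44 of the 100 wider peaks (44.0%, 34.1 to 54.3%). A narrow interval has less room to overlap, and its part in this difference was not tested.

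**Figure D2:**
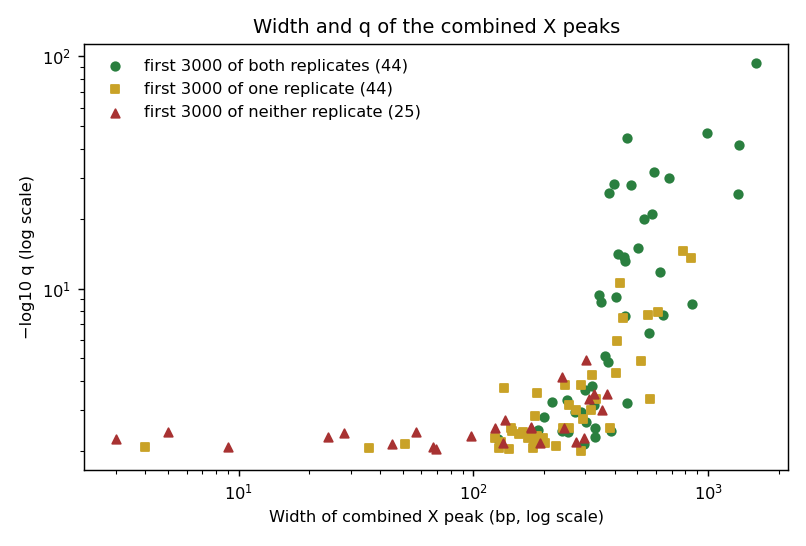
Width of the 113 combined X peaks in bp (x axis, log scale) against −log10 q (y axis, log scale), with the symbol showing whether members of both replicates overlapped (44), in a single replicate (44) or in neither (25). Peaks rise to the right, and those under 100 bp are matched in at most a single replicate.

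In the replicate lists nearly every X interval had a fixed width. It was 504 bp for 669 of the 686 replicate 1 peaks and 520 bp for 713 of the 723 replicate 2 peaks. The 17 and 10 narrower ones were between 129 and 460 bp and between 166 and 351 bp wide, and none had a peak number above 169 and 52. Of these, 6 and 4 began between 6725960 and 6764556. These narrower intervals included 2 identical entries of replicate 1, at 6737555 to 6737997, listed as numbers 13 and 169.

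Among X peaks that overlapped between the replicates, midpoints lay closest in the best-ranked pairs. On X, 86 pairs of overlapping peaks numbered 3000 or lower could be matched between the replicates, with midpoints a median of 65.5 bp apart. For the 17 pairs with both numbers at 100 or lower the median was 14.5 bp and the largest distance 50 bp. Because pairs had to overlap, their distances were limited in advance, and more so for the narrower intervals among the lowest numbers. Of the X peaks numbered 100 or lower, 37 in replicate 1 and 28 in replicate 2, only 17 in each list had a partner numbered 100 or lower. For the 43 pairs whose weaker member was numbered 1001 to 3000 the median was 112 bp. The signed offset of replicate 2 from replicate 1 had a median of -9 bp over all pairs, which is small beside the interval widths. Against the combined peaks matched in both replicates, the best replicate midpoint lay a median of 36 bp (replicate 1) and 64.5 bp (replicate 2) from the combined midpoint. It fell inside the combined peak for 40 and 38 of the 44. Peak numbers of the 86 pairs were related with rho = 0.49 across pairs.

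The replicates shared a minority of their X peaks at this rank limit. Of the 686 replicate 1 peaks, 94 overlapped a replicate 2 peak numbered 3000 or lower (13.7%, 11.2 to 16.5%), and of the 723 replicate 2 peaks 95 did in the other direction (13.1%, 10.8 to 15.8%). The same shares over all chromosomes were 11.9% and 12.2%, inside both intervals. X rows with higher numbers overlapped the other replicate's first 3000 in 5.21% and 5.47% of cases. Those first 3000 covered 1.87% (replicate 1) and 2.03% (replicate 2) of the X span in bp. This is an unlike measure, since an interval counts as overlapping when 1 bp of it is touched. It is therefore not the share that randomly placed intervals would reach, which was not computed. The share fell with rank in both lists. It was 75.7% (58.8 to 88.2%) of 37 replicate 1 peaks and 78.6% (59.0 to 91.7%) of 28 replicate 2 peaks numbered 1 to 100. For numbers 101 to 396 it was 24.7% and 23.7%, for 397 to 1000 it was 9.93% and 13.5%, and for 1001 to 3000 it was 7.66% (5.33 to 10.6%) and 7.43% (5.23 to 10.2%). In this last class the replicate 2 interval includes the 5.47% of the rows beyond 3000, and the replicate 1 interval begins just above their 5.21%. The shares by class of number were not taken over all chromosomes, so the fall with rank does not set X apart.

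A combined peak was present at 81 of the 686 replicate 1 peaks (11.8%, 9.49 to 14.5%) and at 73 of the 723 replicate 2 peaks (10.1%, 8.00 to 12.5%). Over all chromosomes these shares were 8.53% and 7.3%, below both intervals. X held 28.5% of the combined peaks but 22.9% and 24.1% of the first 3000 of the replicates, so this difference partly restates the number of combined peaks on X. Among numbers 1 to 100, a combined peak was present at 30 of 37 peaks in replicate 1 and at 17 of 28 in replicate 2, shares not taken over all chromosomes.

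At the rank limit itself the lists showed no step in score. The 3 X members just inside in replicate 1, numbers 2984, 2985 and 2989, had scores of 0.824, 0.824 and 0.825, and the 3 just outside, numbers 3020, 3022 and 3025, had 0.814, 0.814 and 0.814. In replicate 2 the scores of numbers 2994, 2998 and 3000 were 0.911, 0.907 and 0.906, and those of numbers 3007, 3009 and 3011 were 0.901, 0.901 and 0.902. The median score was 1.19 over the members and 0.142 over the background rows in replicate 1, and 1.45 and 0.194 in replicate 2. The score has no stated scale, and 77 X peaks of replicate 1 and 113 of replicate 2 shared its ceiling. Over all chromosomes 263 and 429 peaks did. The 10 X peaks with the lowest numbers in each replicate all had the ceiling score, so the score does not order them and their ranks rest on the peak numbers alone.

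Along X, the peaks were spread unevenly, and both replicates showed similar highs and lows. X spanned 17.7 Mb in the lists, with 6.38 combined peaks, 38.7 replicate 1 peaks and 40.8 replicate 2 peaks per Mb. Over all chromosomes there were 3.95 combined peaks per Mb and 29.9 in each replicate. In 1 Mb bins counted from the start of the sequence, the interval from 13 to 14 Mb held most combined peaks, with 18, ahead of 14 from 6 to 7 Mb. The bins from 4 to 5 and from 5 to 6 Mb held 9 combined peaks each. With neighbouring peaks joined into loci at gaps of 10 kb or less, the bins from 13 to 14, 6 to 7 and 5 to 6 Mb each held 9 loci. The bin from 4 to 5 Mb held 6 loci. In replicate 1 the highest bins were 6 to 7 Mb (67 peaks), 13 to 14 Mb (64) and 4 to 5 Mb (63), and in replicate 2 they were 6 to 7 Mb (74), 4 to 5 Mb (57), 10 to 11 Mb (53) and 13 to 14 Mb (52). The first Mb was lowest in every list, with 0 combined, 14 replicate 1 and 17 replicate 2 peaks. The other sparse bins of the combined list were 9 to 10 Mb with 2 peaks, and 1 to 2, 2 to 3 and 15 to 16 Mb with 3 each.

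Part of this pattern was also present in the background rows. Over the 17 complete bins, Spearman's rho was 0.80 between the member counts of the replicates, and 0.83 between their background counts. It was 0.75 (replicate 1) and 0.79 (replicate 2) between members and background of the same list. Combined counts followed replicate 1 with rho = 0.91 and replicate 2 with rho = 0.74. The bins share the same underlying sequence and the lists share libraries, so these values are descriptions. To set members against background, the share of a bin's X rows that were numbered 3000 or lower was taken, which was 11.1% over X in replicate 1 and 11.3% in replicate 2. It was highest from 4 to 5 Mb in replicate 1 (16.5%, 12.9 to 20.7%) and from 6 to 7 Mb in replicate 2 (16.0%, 12.8 to 19.6%). In the same bins the other replicate had 14.9% (11.5 to 18.8%) and 15.2% (12 to 18.9%), so that both replicates lay above their X-wide share there. From 13 to 14 Mb the interval lay above it in replicate 1 (15.5%, 12.2 to 19.4%) but included it in replicate 2 (12.4%, 9.41 to 16.0%). The first Mb lay below it in replicate 1 (5.83%, 3.23 to 9.59%), while the replicate 2 interval included it (9.14%, 5.41 to 14.2%). The bin from 9 to 10 Mb, near the middle of X, did the same, with 7.59% (5.10 to 10.8%) in replicate 1 and 10.3% (7.40 to 13.8%) in replicate 2. These were the bins picked out of 18 for their values, so intervals beyond the X-wide share are a description. Across the 17 complete bins the shares of the replicates were related with rho = 0.63.

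**Figure D3:**
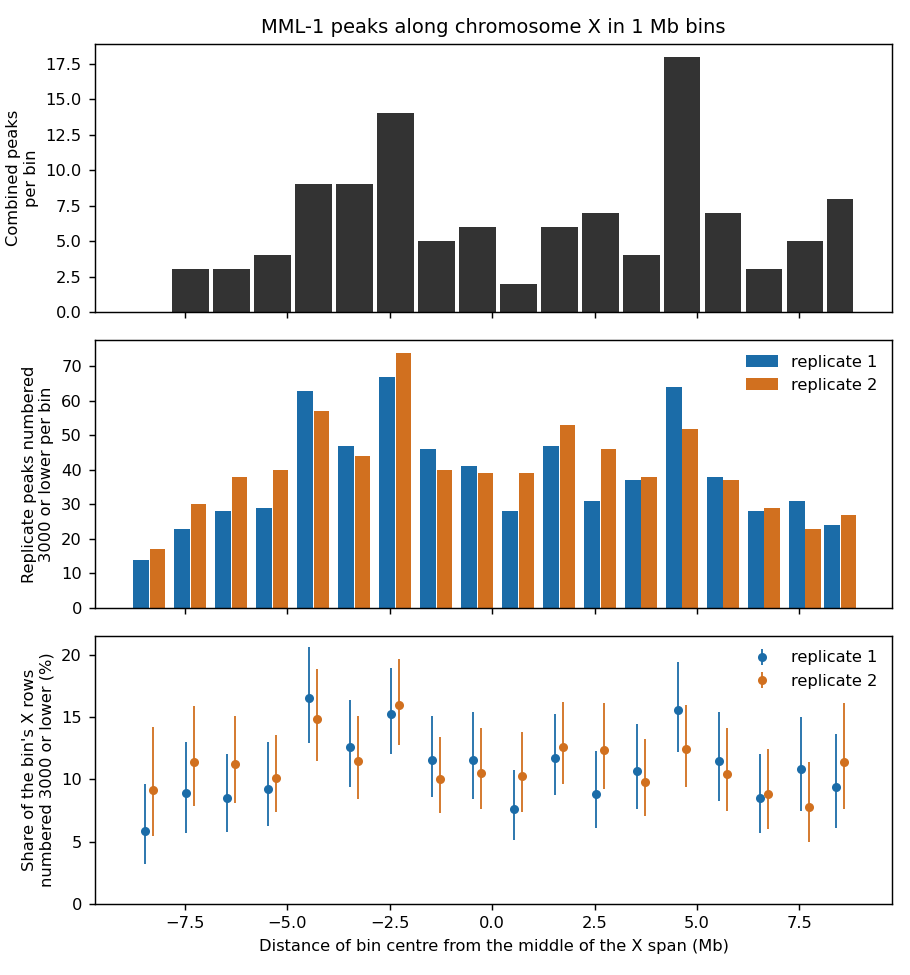
Counts per 1 Mb bin of X by distance of the bin centre from the middle of the X span (x axis, Mb): combined peaks (top), replicate peaks numbered 3000 or lower (middle), and the share of all X rows in the bin numbered 3000 or lower, with exact 95% intervals (bottom, %). Combined counts reach 18 and 14 in the highest bins and 0 in the first, and the last bin is incomplete.

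The central 33.3% of the span, from 5.91 to 11.8 Mb, held 39 of the 113 combined peaks (34.5%, 25.8 to 44.0%). It held 38.3% (34.7 to 42.1%) of the replicate 1 and 40.4% (36.8 to 44.1%) of the replicate 2 members. The background rows gave 37.0% in both replicates, inside both members' intervals, so at this rank limit the members did not differ from the weaker rows beyond counting error. Relative to length these are 1.04 times for the combined list, 1.15 and 1.21 times for the members, and 1.11 times for both backgrounds. Members numbered 1000 or lower gave 1.31 times (1.12 to 1.496) in replicate 1 and 1.30 times (1.11 to 1.49) in replicate 2. These intervals began only just above the background values, at 1.121 against 1.109 in replicate 1 and 1.112 against 1.110 in replicate 2. The backgrounds had intervals of 1.07 to 1.15 in both replicates, which overlap those of the members. All members, not only those numbered 1000 or lower, were also joined into loci at gaps of 10 kb or less. This gave 1.06 times (0.917 to 1.20) in replicate 1 and 1.14 times (1.001 to 1.28) in replicate 2. Both intervals included the background values, but background rows were not joined, so members and background were counted in unlike units. The set numbered 1000 or lower was not joined, so the part of grouping in its higher values was not tested. The left part held 24.8% (17.1 to 33.8%) of the combined peaks and the right part 40.7% (31.6 to 50.4%). Both are shares of the same 113 peaks, so overlap of their intervals cannot decide whether the lean to the right exceeds counting error. The right part also holds groups of 9 and 6 combined peaks, which the intervals treat as independent. The lean was not tested. Replicate 1 leaned the same way, with 28.9% left and 32.8% right, and replicate 2 the other way, with 30.8% left and 28.8% right. The ends themselves were unlike each other. The first Mb of the span held no combined peak (0%, 0 to 3.21%), 2.04% (1.12 to 3.40%) of the replicate 1 members and 2.63% (1.59 to 4.07%) of the replicate 2 members, all below its 5.65% of the length. The background rows were also few there, at 4.12% and 3.06%, the first above the replicate 1 interval and the second inside the replicate 2 interval. The last Mb held 11 combined peaks (9.73%, 4.96 to 16.8%) and 5.25% and 5.12% of the replicate members (3.70 to 7.19% and 3.63 to 6.99%), and all 3 intervals include 5.65%. Those 11 peaks formed 6 separate loci, a group of 6 peaks and otherwise single peaks.

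Spacing was much wider in the combined list than in the replicate lists, which hold more peaks, and in each list short and long gaps were mixed. The median gap between neighbouring X peaks was 86.9 kb (95% interval 45.3 to 132 kb) in the combined list, 13.9 kb (11.9 to 15.7 kb) in replicate 1 and 14.7 kb (12.7 to 16.4 kb) in replicate 2. The mean exceeded the median by a factor of 1.66, 1.78 and 1.60. In the combined list 28 of 112 gaps (25%) were 10 kb or shorter and 51 (45.5%) exceeded 100 kb, with 33 in between. In replicate 1, 283 of 685 gaps (41.3%) were 10 kb or shorter and 20 exceeded 100 kb, and in replicate 2 these were 294 of 722 (40.7%) and 19. Touching or overlapping neighbours accounted for 44 and 52 of the short gaps.

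**Figure D4:**
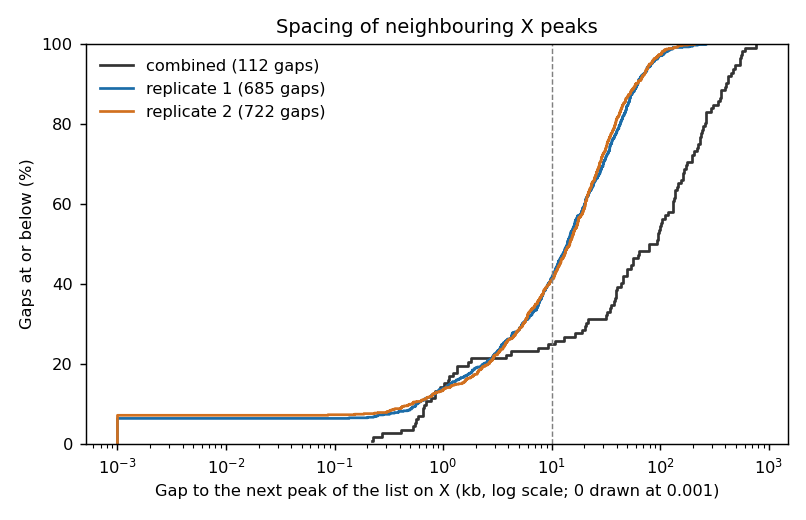
Cumulative share of gaps (y axis, %) between neighbouring X peaks by gap length (x axis, kb, log scale) for the combined list (112 gaps), replicate 1 (685) and replicate 2 (722), with a dashed line at 10 kb. The replicate curves nearly coincide, and the combined curve lies to their right at the dashed line and beyond it, with 28 of its gaps to the left of that line.

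The longest stretch of X without a combined peak ran from 3371584 to 4144131 (773 kb). It held 25 replicate 1 and 29 replicate 2 members and 228 and 252 background rows. The next were 8836176 to 9441498 (605 kb, with 17 and 29 members) and 1965105 to 2536478 (571 kb, with 17 and 22 members). In addition, no combined peak lay in the first 1438 kb of the span, where replicate 1 began after 340 kb and replicate 2 after 290 kb. In replicate 1 the longest gaps ran from 1614924 to 1880665 (266 kb), 15881895 to 16104540 (223 kb) and 3492802 to 3691801 (199 kb), and replicate 2 had 5, 2 and 8 members in them. In replicate 2 they ran from 14208251 to 14416948 (209 kb), 15698723 to 15879068 (180 kb) and 299450 to 457440 (158 kb), with 5, 6 and 4 replicate 1 members. None of these stretches was therefore empty in the other replicate, and the background rows inside each numbered 33 or more per replicate.

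Some X peaks lay in tight groups. Peaks with gaps of 10 kb or less were joined, which gave 85 loci from the 113 combined peaks: 73 single peaks, 7 pairs, 2 groups of 3 and 3 larger groups. Joined peaks numbered 40 (35.4%, 26.6 to 45.0%), against 41.7% over all chromosomes, which lies inside the interval. The combined peaks were denser on X, at 6.38 per Mb against 3.95 over all chromosomes, so these shares were taken at unlike densities. In the replicate lists 62.1% (58.4 to 65.7%) of the 686 and 63.3% (59.7 to 66.9%) of the 723 members were joined, against 55.4% and 56.8% over all chromosomes. The X members were also denser, with 38.7 and 40.8 per Mb against 29.9 over all chromosomes in each list, and the part of density in this difference was not tested. Joined combined peaks had smaller q-values than single ones (medians 1.93e-07 and 0.00305) and were wider (medians 410.5 and 239 bp). Of the 20 X peaks with a q-value below 1e-10, 16 were in groups, a share not taken for the other chromosomes. The share matched in both replicates was 42.5% (27.0 to 59.1%) for joined and 37.0% (26 to 49.1%) for single peaks, a difference within counting error.

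Of the 12 groups of combined peaks, 10 held a member of both replicates and 7 held at least 2 members of each. The pairs at 8155575 to 8156119 and 11465219 to 11467292 held none of either. In the other direction, 17 of the 33 replicate 1 groups of 4 or more peaks and 16 of the 27 replicate 2 groups of that size held a combined peak. Members of the other replicate were present in 21 of the 33 and 20 of the 27.

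The 3 larger combined groups held 20 peaks, 17.7% of those on X. The group at 13350113 to 13360204 had 9 peaks in 10.1 kb, with gaps of 407 to 1227 bp (median 740.5 bp) and q-values from 1.47e-30 to 0.00732. Replicate 1 had 8 members there, the best number 16, but replicate 2 had only 3, the best number 37. In the group at 17631012 to 17641119, 6 combined peaks in 10.1 kb faced 6 replicate 1 and 8 replicate 2 members, with best numbers 11 and 20. The third group, at 6735574 to 6750613, had 5 combined peaks in 15 kb, 13 replicate 1 members and 15 replicate 2 members, with best numbers 2 and 3. The 13 include the interval listed under both number 13 and number 169. As listed, the member counts of the replicates differed by 2 in the second and in the third group, and by 5 in the first.

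**Figure D5:**
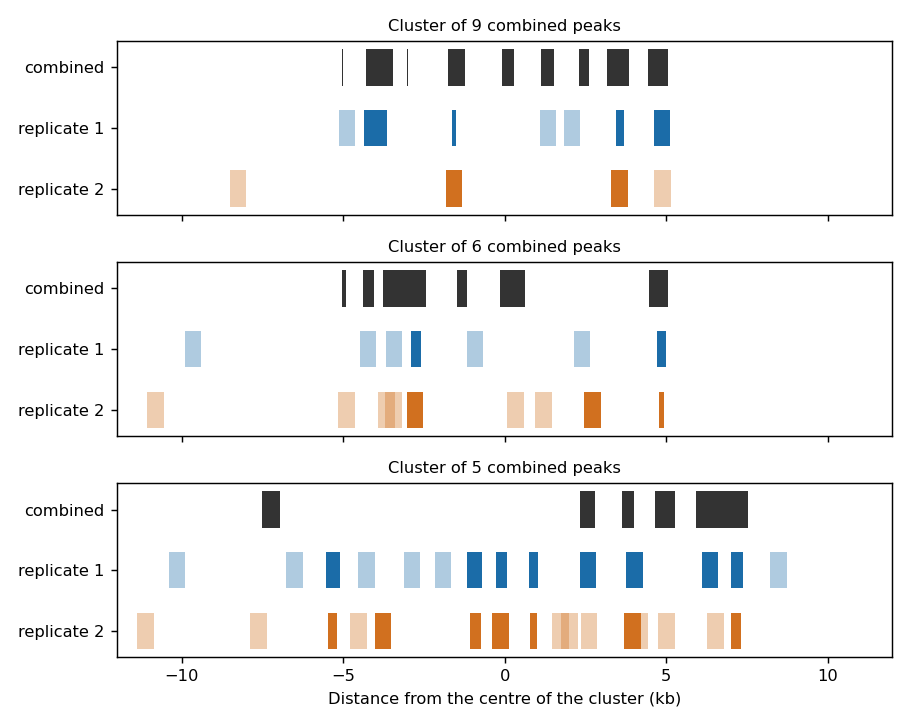
The 3 groups of 4 or more combined X peaks, each drawn to scale by distance from its centre (x axis, kb), with rows for the combined list, replicate 1 and replicate 2. Boxes are peaks, and pale replicate boxes are members numbered above 100. In the group of 5 combined peaks, replicate boxes fill a 9309 bp gap that the combined list leaves empty.

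This last group was part of the largest in both replicate lists. With joins at 10 kb it ran from 6725960 to 6764556 with 18 members in replicate 1 (including the interval with a repeated entry) and from 6728984 to 6750407 with 18 in replicate 2. Of the 10 X peaks with the lowest numbers, 4 of replicate 1 (numbers 2, 12, 13 and 20) and 4 of replicate 2 (numbers 3, 9, 22 and 23) lay there. Number 2 of replicate 1, at 6741934 to 6742393, and number 3 of replicate 2, at 6742014 to 6742364, had midpoints 25.5 bp apart. They overlapped no combined peak, the nearest being 3044 and 3073 bp away. The same held for the pairs numbered 13 and 22 (6737555 to 6737997 and 6737609 to 6737884), 20 and 52 (6743829 to 6744121 and 6743865 to 6744093) and 38 and 23 (6742824 to 6743148 and 6742701 to 6743220). Their midpoints were 29.5, 4 and 25.5 bp apart. These 4 were the only ones of the 17 X pairs with both numbers at 100 or lower that lacked a combined peak. The 9309 bp gap between the combined peaks at 6735574 and 6745437 holds all of them. The cause of this gap was not tested.

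The other leading replicate peaks overlapped combined peaks described above. They were numbers 10, 11, 14, 16, 21 and 23 of replicate 1 and numbers 5, 8, 14, 15, 20 and 21 of replicate 2. Further X peaks numbered 100 or lower without a combined peak had no counterpart numbered 100 or lower in the other replicate. In replicate 1 they were numbers 80 (14602550 to 14603053), 94 (15841016 to 15841519) and 95 (7058329 to 7058832). The first overlapped no replicate 2 peak, and the others overlapped numbers 12134 and 11586. In replicate 2 there were 7. Numbers 65 (5835094 to 5835613), 81 (2862315 to 2862834) and 89 (6739064 to 6739583) overlapped no replicate 1 peak. Numbers 67 (10327397 to 10327916) and 92 (12889439 to 12889958) overlapped numbers 23527 and 6835. Numbers 56 (6918705 to 6919224) and 59 (17638512 to 17639031) overlapped members of replicate 1, numbered 2425 and 584. Altogether 36 of the 86 matched pairs on X lacked a combined peak, with median numbers of 1383 and 609.5, against 121.5 and 355.5 for the 50 pairs that had one.

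Other large groups of replicate members, chosen after their values were seen, were less even. In replicate 1 a group of 10 lay at 6796250 to 6823959, where replicate 2 had 4 members and the combined list 2 peaks, and a group of 9 lay at 4132321 to 4147958, with 4 replicate 2 members and 2 combined peaks. In replicate 2 a group of 12 lay at 10327397 to 10353817 with 5 replicate 1 members, and a group of 9 at 4519311 to 4548674 with 5. The groups of 6 at 14556173 to 14565964 in replicate 1 and at 4643244 to 4666322 in replicate 2 held no combined peak. The other replicate had no member in the first and a single member, number 1446, in the second.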

How the data were processed

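Peak lists from 2 anti-GFP ChIP samples and a combined list were used; the 2 input samples have no values here. Coordinates are on WormBase WS220, per the file headers. In the deposited combined list each peak has a q-value, and the source column names PeakSeq. In the deposited replicate lists each peak has a score and a number, and the source column names spp_via_IDR. The aligner, the control and any pooling of reads: not given in the sources used here. Depth is unknown because the lists hold no counts.

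Peaks were assigned to bins and parts of X by midpoint, and replicate members of a combined group were counted by overlap with its span. An overlap of 1 bp or more counted, and peaks with gaps of 10 kb or less were joined. The X span was taken between the outermost listed positions. Replicate pairs were matched by nearest midpoints. Intervals of medians are 95% order-statistic intervals. The members, tests and lists were chosen with earlier results of these data known. The regions named follow a fixed rule: the 15 smallest q-values, groups of 4 or more combined peaks, leading or unmatched replicate peaks, the 5 most unequal ranks, extremes of width, q-value, gaps and bins, and the edge of the rank limit. Others are marked. No gene is named and no sequence printed, since no annotation or genome of WS220 was used. The overlap and grouping code was tested on simulated data. Alternatives changed the rank limit, overlap, joining distance, bins, q-value and width limits, and left out a replicate. Computation used Python 3.11.15 with scipy 1.17.1, pandas 2.3.3 and numpy 2.4.6, and figures matplotlib 3.10.9.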

Additional observations from a re-analysis of the deposited data

How the results depend on the processing

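No paired analysis was possible because only ChIP lists were analysed, and the inputs numbered like them gave no values. The share of combined X peaks matched in both replicates, 38.9%, was 25.7% with numbers of 1000 or lower, 17.7% with 50% reciprocal overlap and 78.1% for q-values below 1e-05. It was 78.8% with all peak numbers, an alternative chosen after seeing the data, and 55.8 to 61.1% when a single replicate was required. Numbers of 1000 or lower raised the replicate peaks shared to 18.0% (replicate 1) and 17.9% (replicate 2), raised those with a combined peak to 26.3% and 18.7%, and lowered those in groups to 47.8% and 41.7%. They widened the median gap to 34.6 and 29.4 kb. The central share relative to length rose to 1.31 times (1.12 to 1.496) in replicate 1 and 1.30 times (1.11 to 1.49) in replicate 2. Both intervals begin only just above the 1.11 times of the backgrounds and overlap the backgrounds' own intervals (1.07 to 1.15). With 50% reciprocal overlap, 10.5% and 9.96% of replicate peaks were shared and 5.69% and 4.43% had a combined peak. Joining at 5 kb put 44.6% and 46.9% of replicate peaks in groups, and at 20 kb 80.03% and 80.8%. For combined peaks with q-values below 1e-05, 56.2% were in groups, the median width was 519 bp and the highest bin held 7 peaks; joined into loci, the highest bin held 9. The other 29 of the 56 values stayed within the interval, or for the highest bin within 1.5 times, of the reported value. Leaving out the region of the largest replicate group, also chosen after seeing the data, kept all 4 replicate shares within their intervals. Fewer peaks enter under the stricter rank and q-value limits, and beyond that the cause of these changes was not tested. Depth is unknown, so a missing peak cannot be called unbound.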
